A study of Mus musculus with 15 samples.

Results

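The libraries described here were 7 of the 15 RNA-seq libraries of a mouse brain study, split into 4 that carried hindbrain marker RNA and 3 that carried cortex marker RNA. The libraries were chosen by their Hoxa5 and Neurod6 counts and not by their labels, which describe every sample as a snap-frozen brain hemisphere. A library was placed on the hindbrain side where Hoxa5 reached at least 20 counts per 1000000 counts of the library total (raw CPM), and on the cortex side where Neurod6 reached at least 90 raw CPM. The lowest Hoxa5 value inside the hindbrain side was 69.5 raw CPM and the highest outside it was 2.00. The lowest Neurod6 value inside the cortex side was 120 raw CPM and the highest outside it was 56.6. Of the 8 libraries on neither side, 7 carried olfactory markers and 1, TG female 3, carried cerebellum markers.

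The study compared homozygous mice carrying the PLP-α-synuclein transgene (TG) with non-transgenic C57Bl/6 mice (WT), both sexes, all at 12 months of age. The transgene places human α-synuclein under the PLP promoter, which is active in oligodendrocytes, and the line serves as a model of multiple system atrophy. No animal in either group received a drug, as far as the labels state. The hindbrain side held WT male 3, WT female 3, TG female 1 and TG female 4. The cortex side held WT male 4, WT female 2 and TG male 4, so 1 transgenic library stood for its genotype there. Within each side, the values below follow those orders.

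The hindbrain (medulla, pons and cerebellum) and the cerebral cortex arise from different ends of the neural tube and keep different transcription factors in adult life. Hox genes are expressed in the hindbrain and spinal cord in nested domains along the head-to-tail axis, with higher-numbered genes starting further back, and they are largely silent in the forebrain. Brainstem circuits use glycine and VGLUT2-type glutamate neurons, hold most monoamine cell groups and are rich in myelinated tracts, whereas most cortical neurons are excitatory cells that use VGLUT1 and express their own set of projection neuron factors.

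Because the sides were formed from measured RNA, the differences between them are descriptions and carry no p-value. Each is given as a log2 difference, hindbrain minus cortex, with its standard error (SE) from a model with genotype as a covariate, and levels are CPM after TMM scaling of the library totals. A gene was counted as separated where that difference was at least 1 in size and no library of one side overlapped the range of the other. In bulk tissue, fewer cells of a type and less RNA per cell cannot be told apart. The labels do not say how the animals relate to one another, so the tests of genotype further on measure the spread between these samples.

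Library totals ran from 15170772 to 35850998 counts, and a count of 3 over all libraries of a side was worth 0.031 CPM on the hindbrain side and 0.0559 CPM on the cortex side. Side accounted for 99.8% of the spread along the first principal component of the 7 libraries, which held 85.3% of the variance. The second component held 4.36% and placed the cortex-side libraries TG male 4 (−23.1) and WT male 4 (22.2) at its ends. Of 16650 genes fitted, 1884 (11.3%) were separated with higher levels in the hindbrain libraries and 1473 (8.85%) with higher levels in the cortex libraries, 3357 (20.2%) in all. Without a minimum difference, 10026 genes (60.2%) had ranges that did not overlap. Among the separated genes, 303 were at least 8-fold higher in the hindbrain libraries and 233 in the cortex libraries. Among all fitted genes, 5755 (34.56%) lay within 1.2-fold. The median log2 difference over all fitted genes was 0.01, and the biological coefficient of variation was 12.9%. The percentages are the background for every count of list members below; since the same contrast formed the sides, nothing is read from the comparison with them.

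Of the 3 markers that name the sides, Hoxa5 and Neurod6 formed them, so their separation was set in advance. Hoxa5, a homeodomain factor of the caudal hindbrain and cervical cord, measured 66.9, 108, 117 and 84.9 CPM in the hindbrain libraries and 0, 0.0529 and 0 CPM in the cortex libraries. Neurod6, a basic helix-loop-helix factor of cortical pyramidal neurons, measured 4.35, 7.34, 6.01 and 7.65 CPM against 165, 127 and 132 CPM. Mbp, which encodes the myelin basic protein and was not used to form the sides, measured 11551, 12763, 11673 and 10272 CPM against 2260, 2824 and 1342 CPM, a log2 difference of 2.56 ± 0.19. The Mbp ranges of the sides did not overlap.

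**Figure D1:**
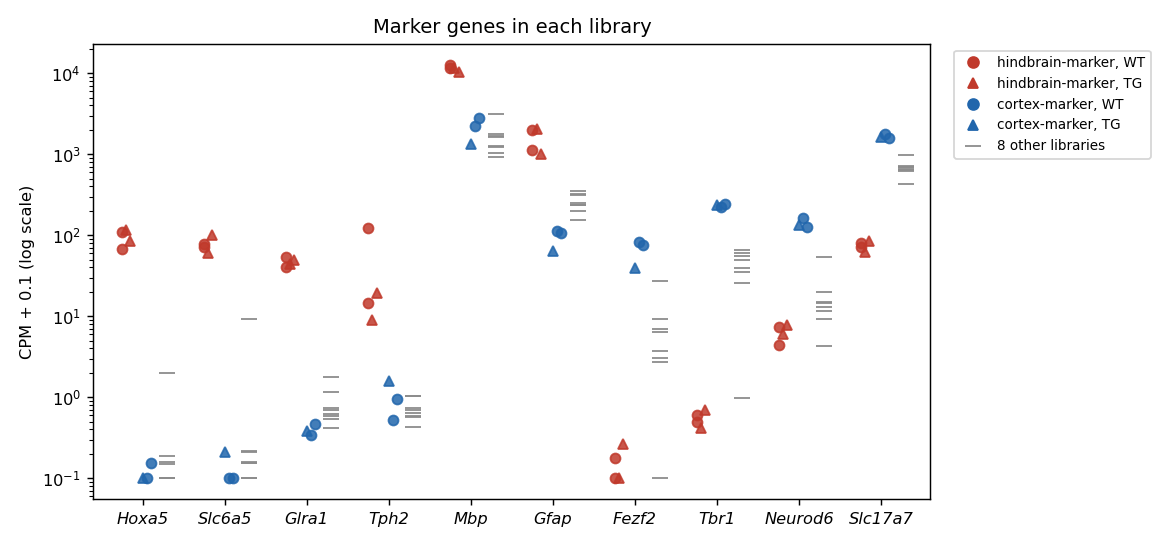
Level of 10 marker genes in each library, as CPM + 0.1 on a log scale, in red for the hindbrain-marker and blue for the cortex-marker libraries (circles WT, triangles TG), with grey dashes for the 8 other libraries. Hoxa5 stands at 66.9 to 117 CPM in the hindbrain libraries and at 0 to 0.0529 CPM in the cortex libraries, and Mbp at 10272 to 12763 CPM against 1342 to 2824 CPM.

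Hox RNA was found almost entirely on the hindbrain side, with summed levels of 552 to 1052 CPM against 0.212 to 0.596 CPM. Of 39 Hox genes listed, 9 had no count in any of the 15 libraries, 22 passed the filter on low counts, and all 22 of those were separated with higher levels in the hindbrain libraries. The filter passes a gene that is high on 1 side, so that count describes the genes that could enter. Hoxa5, whose level formed the side, is 1 of the 22 and is part of every Hox sum given here; its own separation was fixed by the rule. Their median log2 difference was 11.14 as fitted and 8.64 with genes at 0 in the cortex libraries set to the bound that 3 counts allow. Hoxc4 measured 42.1, 48.7, 41.7 and 40.0 CPM and had no count in the cortex libraries, which puts it at least 772-fold higher in the hindbrain libraries. Hoxb6 measured 29.1, 58.7, 76.7 and 41.6 CPM and was at least 922-fold higher by the same bound. Hoxd3 (28.3 to 36.3 CPM) was at least 579-fold higher and Hoxc5 (21.3 to 34.0 CPM) at least 495-fold higher. Hoxc4, Hoxc5 and Hoxc6 share a transcribed region, so their reads cannot be assigned with certainty.

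Within the hindbrain side the Hox genes fell into 2 patterns by paralog group, the number that gives a gene's place along its cluster. The 14 genes of groups 1 to 5 were even across the 4 libraries: the highest library exceeded the lowest by a median of 1.27-fold, and 1 gene, Hoxd1, exceeded 2-fold. Hoxa4, a group 4 gene, measured 19.7, 20.4, 18.7 and 20.2 CPM. The 8 genes of groups 6 to 9 varied by 2.64-fold to 39.8-fold, with a median of 4.55-fold, and all 8 were highest in TG female 1 and next highest in WT female 3. Hoxb8 measured 72.5, 194, 319 and 96.1 CPM in the order given above. Hoxb9, the group 9 gene that passed the filter, measured 0.474, 5.20, 18.9 and 1.38 CPM. Hoxd9, of the same group and below the filter, kept that order at 0.158, 1.23, 2.25 and 0.22 CPM.

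Summed over groups 1 to 5, the hindbrain libraries measured 424, 518, 518 and 461 CPM. Over groups 6 to 9 the sums were 127, 329, 528 and 165 CPM, so the caudal groups separated TG female 1 and WT female 3 from the other two while the rostral groups did so far less. Each of these pairs held 1 library of each genotype. Hoxc9, Hoxc10 and Hoxd10, genes of the spinal cord below the neck, had no count in any of the 7 libraries.

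Transcription factors of the hindbrain and midbrain followed the Hox genes, and those of the forebrain went the other way. Of 28 fitted hindbrain and midbrain factors (29 listed), 26 were separated with higher levels in the hindbrain libraries and none with higher levels in the cortex libraries, with a median log2 difference of 6.52 (5.69 with bounds). Without WT female 3, 1 member was separated toward the cortex libraries. Pax8, a paired-box factor of hindbrain and spinal interneurons, measured 10.2, 10.9, 14 and 15.2 CPM and had no count in the cortex libraries, which puts it at least 226-fold higher. Irx2, an Iroquois homeobox factor, measured 17.9, 17.7, 13.5 and 22.2 CPM against a single count in 1 cortex library. Lbx1, which specifies dorsal inhibitory interneurons of the hindbrain and cord, measured 5.22, 11.7, 12.2 and 12.3 CPM, again against a single count. Tlx3, a selector of dorsal excitatory neurons, measured 1.66, 5.71, 8.95 and 5.01 CPM and had no count in the cortex libraries. The differences of 27 of the 28 were above 0, and 2 members were not separated.

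Among 28 fitted forebrain factors (31 listed), 27 were separated with higher levels in the cortex libraries, and their median log2 difference was −5.10. Tbr1, a T-box factor of deep-layer neurons, measured 225, 244 and 236 CPM against 0.395, 0.509, 0.313 and 0.605 CPM (−8.97 ± 0.13), nearly level across the 3 cortex libraries. Fezf2, a selector of subcortical projection neurons, was less even, at 83.1, 76.3 and 39.2 CPM, with 0 to 0.165 CPM on the hindbrain side. Cux1, an upper-layer factor that other cells also express, was the 1 member that was not separated (−0.28).

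**Figure D2:**
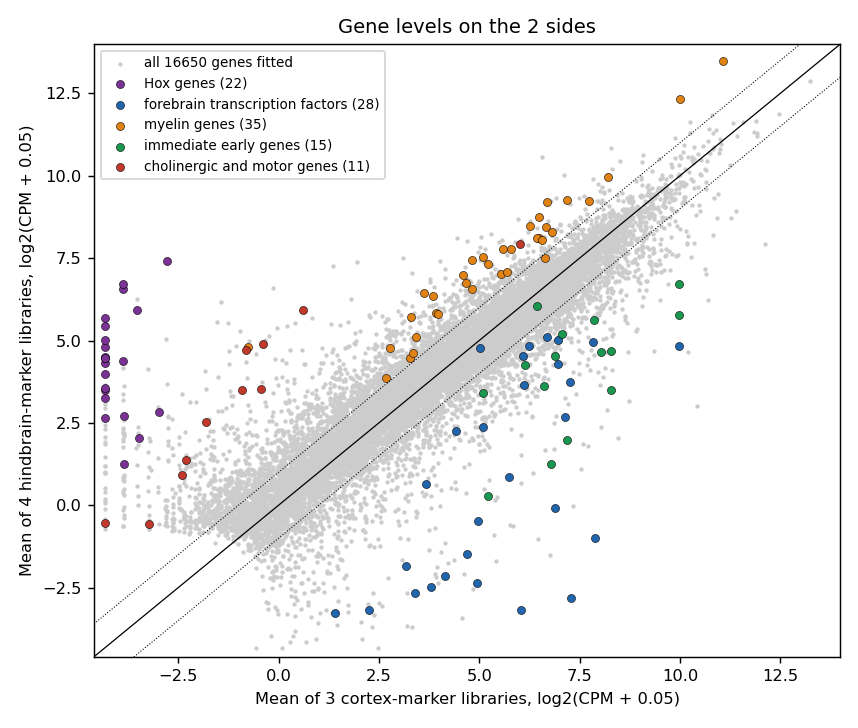
Mean level of each of 16650 fitted genes in the 3 cortex-marker libraries (horizontal axis) against the 4 hindbrain-marker libraries (vertical axis), both as log2(CPM + 0.05), with 5 gene lists coloured, a solid line of equality and dotted lines at 2-fold. The 22 fitted Hox genes lie at the upper left, the 28 forebrain transcription factors below the line of equality and the 35 myelin genes above it.

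Several other genes were among the 12 with the largest differences on the cortex side. Ddn, which encodes the dendritic protein dendrin, measured 1674, 1066 and 1372 CPM against 5.30, 6.65, 10.2 and 10.2 CPM (−7.53 ± 0.26). Kcnj4, an inward rectifier potassium channel, differed by −7.55, the muscle-type gene Igfn1 by −8.65, Smim43 by −7.66 and the keratin gene Krt12 by −6.57. The non-coding genes Dlx1as (−9.00) and Dlx6os1 (−8.18) overlap the Dlx interneuron genes on the opposite strand. The strand setting of the counting is not given in the sources used here, so their reads cannot be told from those of their partners.

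Cortical excitatory and postsynaptic genes were lower across the hindbrain libraries, with 31 of 35 separated and a median log2 difference of −2.89. Camk2a, the alpha subunit of the calcium/calmodulin kinase of excitatory synapses, measured 4464, 3989 and 4953 CPM against 159, 244, 329 and 234 CPM (−4.29 ± 0.19). Nrgn, a calmodulin-binding protein of dendritic spines, measured 934, 1072 and 1496 CPM against 12.4, 25.0, 33.2 and 28.8 CPM (−5.68 ± 0.25). In both genes WT male 3 was the lowest hindbrain library. Lamp5 (0.11), Ncdn (−0.43), Rasgrf2 (−0.68) and Cabp1 (−0.94) were the 4 members that were not separated.

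Glycine signalling was the clearest inhibitory difference. Slc6a5, the neuronal glycine transporter GlyT2, measured 78.8, 70.9, 60.0 and 99.4 CPM in the hindbrain libraries and 0, 0 and 0.111 CPM in the cortex libraries. Glra1, the adult glycine receptor subunit, measured 40.0, 54.1, 44.4 and 49.0 CPM against 0.238, 0.370 and 0.278 CPM (7.27 ± 0.21). Slc6a9, the glial glycine transporter GlyT1, measured 235 to 279 CPM against 35.6 to 51.7 CPM (2.57 ± 0.11). Slc6a11, the astrocytic GABA transporter GAT3, measured 526 to 606 CPM against 133 to 182 CPM (1.88 ± 0.12).

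Shared parts of inhibitory synapses differed little. Glra2, a receptor subunit found in forebrain as well, averaged 12.2 CPM in the hindbrain libraries and 12.3 CPM in the cortex libraries. The scaffold gephyrin (Gphn, 0.16), the glycine receptor beta subunit (Glrb, 0.40) and the GABA-synthesizing enzyme gene Gad2 (0.21) were not separated. In the other direction, Gabrd, the delta subunit of extrasynaptic GABA-A receptors, measured 63.1, 78.8 and 99.2 CPM in the cortex libraries against 1.07, 2.22, 2.38 and 2.04 CPM (−5.42 ± 0.20). Over the whole glycine and GABA list of 27 genes, 8 were separated toward the hindbrain libraries and 6 toward the cortex libraries.

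Glutamate genes split by vesicular transporter. Slc17a6, which encodes VGLUT2, measured 281, 268, 281 and 275 CPM against 11.3, 26.5 and 27.1 CPM (3.65 ± 0.30). Slc17a7, which encodes VGLUT1, measured 71.4, 79.7, 62.0 and 86.0 CPM against 1789, 1567 and 1614 CPM (−4.46 ± 0.13). Among receptors, Grm2 (−3.14 ± 0.11) and the NMDA subunit gene Grin2b (−2.80) were higher in the cortex libraries, and the NMDA subunit genes Grin3b (2.84) and Grin2d (1.41 ± 0.14) were higher in the hindbrain libraries. Of 29 listed genes, 3 were separated toward the hindbrain libraries and 10 toward the cortex libraries.

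Cholinergic and motor neuron genes were all on the hindbrain side, with 11 of 11 separated and a median of 4.52 (4.14 with bounds). Chat, the acetylcholine-synthesizing enzyme, measured 12.2, 11.3, 10.1 and 11.2 CPM against 0.417, 0.370 and 0.667 CPM (4.52 ± 0.21). Slc18a3, the vesicular acetylcholine transporter, measured 24.8 to 29.2 CPM against 0.317 to 0.778 CPM (5.64 ± 0.21). Prph, an intermediate filament of motor neurons, measured 23.1 to 36.1 CPM against 0.555 to 1.01 CPM (5.33 ± 0.30). The hindbrain libraries were close to one another for each of these genes.

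Monoamine genes were not even within the hindbrain side. Of 11 fitted members (13 listed), 9 were separated toward the hindbrain libraries, with a median of 2.76. Tph2, the enzyme that starts serotonin synthesis in neurons, measured 123 CPM in WT male 3 and 14.5, 8.82 and 19.2 CPM in the other hindbrain libraries, against 0.417, 0.846 and 1.5 CPM in the cortex libraries. Slc6a4, the serotonin transporter, followed the same order at 53.0, 4.88, 3.38 and 8.25 CPM. Slc18a2, the vesicular monoamine transporter, measured 136, 27.0, 21.7 and 36.4 CPM. Fev, the factor that defines serotonin neurons, measured 7.71, 1.37, 0.939 and 2.04 CPM. WT male 3 was thus the highest library for every serotonin gene given here, and TG female 4 was the next highest.

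The same 2 libraries stood apart for other regional genes. Besides serotonin genes, WT male 3 was highest for the brainstem and midbrain factors Gata3 (10.8 CPM against 0.501 to 5.45 CPM in the other hindbrain libraries) and Pou4f1 (59.0 against 20.8 to 26.5 CPM), and for the peptide genes Trh (99.3 against 23.1 to 33.6 CPM) and Crh (60.1 against 14.4 to 20.6 CPM). TG female 4 carried hypothalamic RNA: the peptide gene Pmch measured 21.3 CPM there and 0.25 to 0.435 CPM in the other hindbrain libraries, and Avp measured 7.59 CPM against 0.0395 to 0.313 CPM. Nkx2-1, a factor of the developing hypothalamus, measured 4.90 CPM in TG female 4 and had no count in the other hindbrain libraries. These genes, and those in the next paragraph, were picked out after their values were seen. Their part in the differences between sides was not tested.

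The cortex side also held an uneven library. WT male 4 was highest for Cdhr1 (34.6 CPM against 3.44 and 1.33 CPM), Eomes (6.50 against 0.212 and 0.0555 CPM) and Tbx21, all expressed by output neurons of the olfactory bulb, and for the striatal dopamine receptor gene Drd1 (34.0 against 14.6 and 10.4 CPM). Its summed blood genes were 464 CPM against 81.3 to 83.4 CPM in the other cortex libraries; none of 4 fitted blood genes was separated, and 3 were, toward the cortex libraries, without WT male 3. The globin genes Hba-a1 and Hba-a2 in that sum share sequence, so their separate values are uncertain. Drd1 stayed at 0.909 to 1.64 CPM in the hindbrain libraries, and Gabra6, a marker of cerebellar granule cells, stayed at 0 to 1.15 CPM there.

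Genes of large, fast-firing axons were higher in the hindbrain libraries, with 11 of 21 separated in that direction, none in the other, and a median of 1.05. Nefh, the heavy neurofilament chain, measured 1045, 1113, 1010 and 1015 CPM against 86.8, 148 and 182 CPM (2.90 ± 0.24), and the medium (Nefm, 1.93) and light (Nefl, 1.54) chains differed by less. Vamp1, a vesicle SNARE of fast synapses, measured 1751, 1847, 1763 and 1950 CPM against 157, 302 and 478 CPM (2.55 ± 0.32). Syt2, the matching fast calcium sensor, measured 378, 421, 386 and 464 CPM against 18.4, 72.5 and 96.4 CPM (2.72 ± 0.55). In all 3 genes the hindbrain libraries were nearly level, while WT male 4 was the lowest cortex library and TG male 4 the highest. The list's summed level spanned 1.08-fold among the hindbrain libraries and 1.69-fold among the cortex libraries. Spp1, made by large projection neurons among other cells, differed by 3.79 ± 0.10, and Sncg, the gamma-synuclein of motor and sensory neurons, measured 68.0, 31.7, 27.9 and 47.3 CPM against 0.722 to 1.43 CPM. Thy1 (−0.06) and the sodium channel gene Scn8a (−0.37) did not separate the sides.

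Pairs of related genes were compared by the log2 ratio of their CPM within each library, a quantity that also carries transcript length, so that only its shift between sides is read. The shift was 8.26 for Slc17a6 over Slc17a7, with all hindbrain ratios between 1.68 and 2.18 and all cortex ratios between −7.31 and −5.89. For Glra1 over Glra2 it was 7.17, for Syt2 over Syt1 5.58 and for Vamp1 over Vamp2 4.07. Both partners differed in the synaptic vesicle pairs, since Syt1 (−2.55) and Vamp2 (−1.36) were higher in the cortex libraries. In the glycine receptor pair, Glra2 had nearly the same mean on both sides, although it spanned 6.17 to 20 CPM among the cortex libraries. Shifts were smaller for Nefh over Ina (2.33), for Kcna1 over Kcna4 (1.65) and for Gria4 over Gria1 (1.39). The ratio of Camk2a to Camk2b shifted by −3.27. The pair Slc1a2 and Slc1a3, both astrocytic glutamate transporters, shifted least, by 0.52, because both were higher in the cortex libraries (−0.71 and −1.24).

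**Figure D3:**
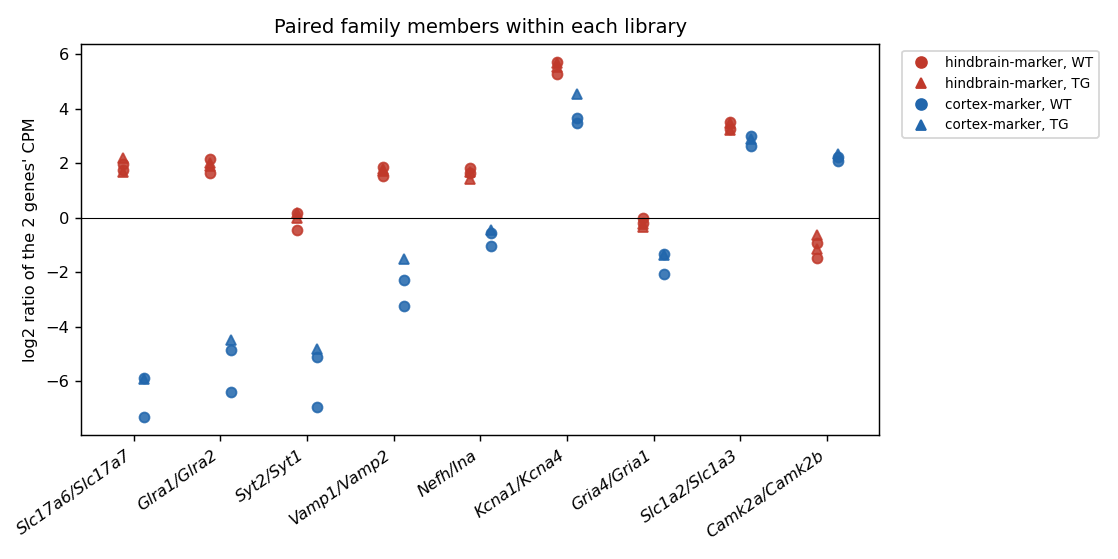
Log2 ratio of the CPM of 2 related genes in each library, for 9 pairs with a ratio on both sides, in red for the hindbrain-marker and blue for the cortex-marker libraries (circles WT, triangles TG). The Slc17a6 to Slc17a7 ratio lies at 1.68 to 2.18 in the hindbrain libraries and at −7.31 to −5.89 in the cortex libraries, and the Slc1a2 to Slc1a3 ratio is the least shifted of those drawn.

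Myelin genes were higher in the hindbrain libraries. Of 35 listed, 34 were separated toward the hindbrain libraries, and the median log2 difference was 2.04. Klk6, a protease of mature oligodendrocytes, differed most, at 31.2, 38.0, 27.5 and 15.8 CPM against 0.715, 0.688 and 0.222 CPM (5.82 ± 0.31). Gjb1, the connexin of myelin sheaths, differed by 3.01 ± 0.25, the iron carrier gene Trf by 2.82 ± 0.29 and Opalin by 1.12. Enpp2 (0.87 ± 0.13) was the 1 member that was not separated. The list's summed level ran from 21116 to 26859 CPM in the hindbrain libraries and from 3441 to 6678 CPM in the cortex libraries.

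Precursor genes and sterol synthesis did not follow the myelin genes to the same extent. Among precursor markers, Pdgfra (0.23), Cspg4 (0.08) and Gpr17 (−0.17) were not separated. Of 13 listed genes, 5 were separated toward the hindbrain libraries. They were C1ql1, Lhfpl3, the lineage factors Olig1 (1.38) and Olig2 (1.22), and Enpp6 (2.84), a marker of newly formed oligodendrocytes. Of 23 cholesterol genes, 1 was separated, toward the hindbrain libraries, and none without WT male 3; the median was 0.42. Whether the myelin difference departs from that of the precursor genes was not tested.

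Astrocyte genes divided by the region in which they are known to be enriched. All 8 genes listed for astrocytes outside the telencephalon were separated toward the hindbrain libraries, with a median of 2.94. Agt, the angiotensinogen gene, measured 140, 176, 189 and 156 CPM against 2.62, 5.61 and 3.22 CPM (5.42 ± 0.26), and the matrix protein gene Sparc differed by 3.11. Of 8 genes listed for telencephalic astrocytes, 4 were separated toward the cortex libraries, with a median of −1.45. The phagocytic bridge protein gene Mfge8 measured 134, 108 and 110 CPM there against 23.5 to 26.4 CPM (−2.19 ± 0.09), and Lrig1 went against its list (2.11 ± 0.09). Irx2, given above, belongs to the list for astrocytes outside the telencephalon as well.

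Of 16 general astrocyte markers, 15 had differences above 0, 6 were separated toward the hindbrain libraries and 1 toward the cortex libraries, with a median of 0.81. Gfap, the intermediate filament raised in white matter and reactive astrocytes, measured 1139, 1970, 2031 and 997 CPM against 113, 106 and 64.3 CPM (4.11 ± 0.39). Its highest libraries, TG female 1 and WT female 3, were those with the highest caudal Hox sums. The water channel gene Aqp4 (2.45 ± 0.22) and S100b (2.40 ± 0.16) were also higher in the hindbrain libraries. Aldh1l1 (0.44) and Sox9 (0.12), markers of astrocytes in general, were not separated, and Slc1a3 was the 1 member higher in the cortex libraries.

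Of 22 microglial genes, 4 were separated toward the hindbrain libraries, none toward the cortex libraries, and 17 had differences above 0, with a median of 0.52. Cx3cr1 (0.01), Tmem119 (−0.05) and P2ry12 (−0.34), receptors and surface proteins of resting microglia, were among those not separated. Clec7a, a receptor of activated and white matter microglia, measured 3.76, 5.55, 6.76 and 3.47 CPM against 0.536, 0.265 and 0.222 CPM (3.83 ± 0.41). Itgax (2.62 ± 0.42), Cst7 (2.17) and the protease gene Ctss (1.21 ± 0.11) were the other members separated toward the hindbrain libraries. Of 21 interferon and antigen presentation genes, 12 were separated in that direction with a median of 1.11, among them Cd74 (1.93) and H2-Ab1 (2.27) of the class II pathway, H2-D1 (1.16) of class I and the interferon target Ifit1 (2.11). H2 genes share sequence, so counts of single members are uncertain.

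**Figure D4:**
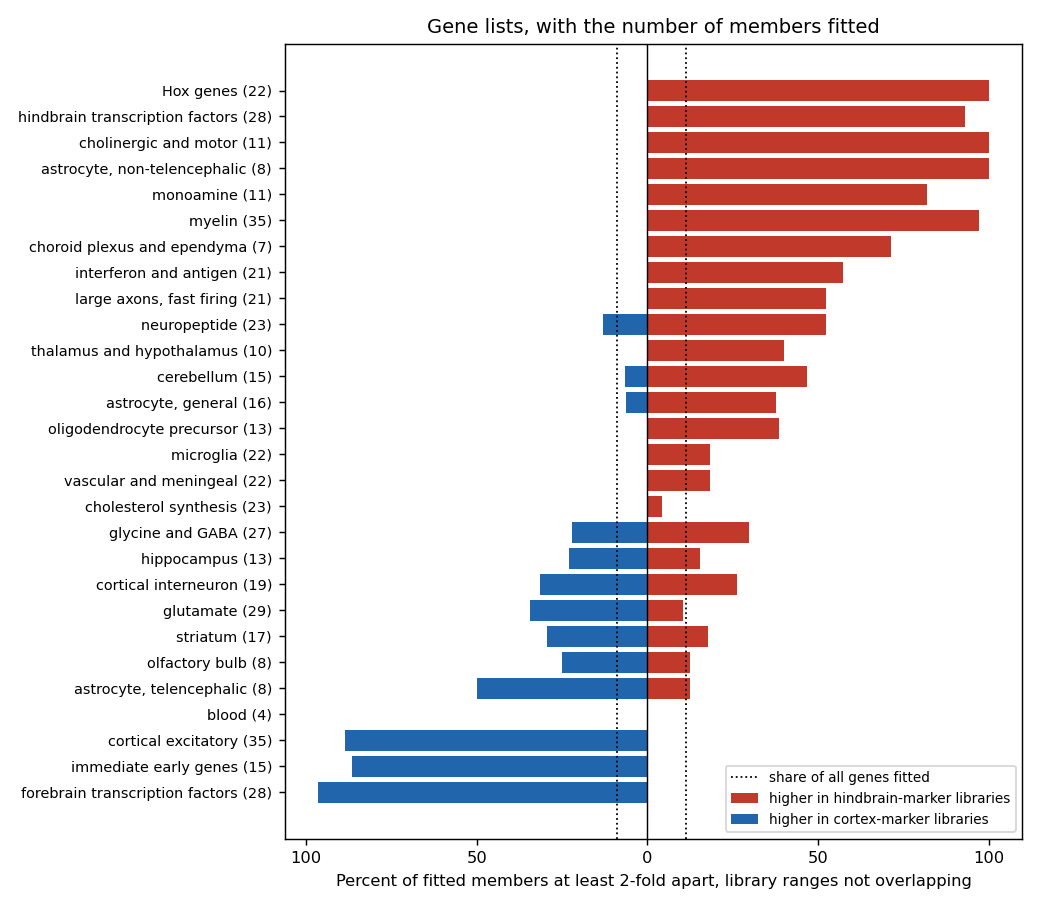
Percent of the fitted members of each gene list (number in brackets) that were separated, drawn to the right where higher in the hindbrain-marker libraries and to the left where higher in the cortex-marker libraries, with dotted lines at the shares of all fitted genes (11.3% and 8.85%). Bars reach 22 of 22 Hox genes and 34 of 35 myelin genes on the right, and 27 of 28 forebrain transcription factors and 13 of 15 immediate early genes on the left.

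Immediate early genes, which neurons transcribe within minutes of activity, were higher in the cortex libraries: 13 of 15 were separated, with a median log2 difference of −3.29. The cortex libraries were far apart, and all 15 genes were highest in WT female 2. Npas4, a factor induced by calcium entry in neurons, measured 85.8, 809 and 46.6 CPM against 15.5, 10.5, 11 and 8.25 CPM. Fos measured 68.1, 544 and 86.8 CPM against 53.2, 40.9, 68.0 and 34.9 CPM, so WT male 4 exceeded the highest hindbrain library only narrowly. Arc, a regulator of synaptic receptor turnover, measured 509, 1551 and 958 CPM against 49.3 to 60.1 CPM (−4.19 ± 0.41), and Egr3 measured 117, 207 and 110 CPM against 2.53 to 6.32 CPM (−5.27 ± 0.41). Summed over the list, the levels were 2173, 6864 and 2858 CPM in the cortex libraries and 375 to 561 CPM in the hindbrain libraries. Without WT female 2, 11 of 15 genes were separated. Jun (−0.35) and Ier2 (−1.66 ± 0.69) were the members that were not separated with all libraries.

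Many activity-regulated promoters hold binding sites for the cAMP response element binding protein CREB, whose core motif reads TGACG, or CGTCA on the opposite strand. The 250 bases upstream of the start of 4 of these genes are shown as picked examples, and all 4 hold the core motif. Sequences are from RefSeq, GRCm38.p6, each written 5′ to 3′ on the gene's strand, with core motifs in capitals. Fos lies at chr12:85473640-85473889 on the plus strand, Junb at chr8:84978749-84978998 on the minus strand, Npas4 at chr19:4989972-4990221 on the minus strand and Nr4a1 at chr15:101266596-101266845 on the plus strand.
Fos: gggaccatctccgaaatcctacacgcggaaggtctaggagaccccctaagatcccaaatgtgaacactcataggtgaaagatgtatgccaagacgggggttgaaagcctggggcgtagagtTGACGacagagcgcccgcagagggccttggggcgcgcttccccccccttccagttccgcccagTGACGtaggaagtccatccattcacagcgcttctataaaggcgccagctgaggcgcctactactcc
Junb: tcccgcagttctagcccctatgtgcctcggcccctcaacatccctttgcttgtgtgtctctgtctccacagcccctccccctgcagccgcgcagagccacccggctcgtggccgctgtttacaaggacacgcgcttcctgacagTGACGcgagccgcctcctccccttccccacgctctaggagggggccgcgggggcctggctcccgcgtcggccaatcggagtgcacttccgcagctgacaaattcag
Npas4: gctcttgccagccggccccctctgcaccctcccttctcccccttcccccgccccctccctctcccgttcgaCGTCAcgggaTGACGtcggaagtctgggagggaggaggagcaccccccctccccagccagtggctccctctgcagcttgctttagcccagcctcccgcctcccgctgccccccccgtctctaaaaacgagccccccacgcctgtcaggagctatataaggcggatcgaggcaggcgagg
Nr4a1: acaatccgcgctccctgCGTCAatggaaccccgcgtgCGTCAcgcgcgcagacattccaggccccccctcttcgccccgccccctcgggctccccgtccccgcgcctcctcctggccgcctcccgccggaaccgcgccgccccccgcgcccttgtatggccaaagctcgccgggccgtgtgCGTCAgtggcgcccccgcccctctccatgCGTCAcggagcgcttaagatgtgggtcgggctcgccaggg
The core motifs begin 129 and 66 bases before the start in Fos, 106 bases before it in Junb, 179 and 169 bases before it in Npas4, and 233, 213, 69 and 40 bases before it in Nr4a1. A promoter was matched for 11 of the 15 genes, and 8 of those 11 held a core motif on either strand, against 17.8% of 27025 mouse promoters of the same length. Fosl2, Jun and Egr2 held none. Whether the motif bears on the levels was not tested. The full palindrome TGACGTCA, which contains both orientations of the core, was present in 2 of the 11 and in 1.6% of all. A match is a description of letters and not of binding. Junb, a partner of Fos in the AP-1 complex, measured 135, 485 and 164 CPM against 22.3 to 33.8 CPM, and the orphan nuclear receptor gene Nr4a1 measured 172, 556 and 210 CPM against 21.7 to 33.4 CPM.

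Genotype came from the labels and played no part in forming the sides, so TG was tested against WT within the 7 libraries, with side as a covariate. This asked which genes differed between TG and WT libraries once marker side was accounted for. Regional differences between libraries of the same side, described above, were not in the model, and their part in the calls was not tested. By edgeR's quasi-likelihood F test at a Benjamini-Hochberg adjusted p of 0.05, 5 of 16650 genes were higher in TG (0.0300%) and 17 were lower (0.102%). No member of any gene list was called. Of the 22 called genes, 20 had a chromosome position. Whether the calls came from the transgene itself or from other differences between the TG and WT animals was not tested. The myelin genes had a median TG minus WT log2 difference of −0.42, with 3 of 35 above 0, and cortical excitatory genes a median of 0.16. Over all fitted genes the median was 0.002, with 8408 of 16650 above 0. Members of a list share the same 7 libraries, so they are not replicates of genotype. Summed myelin genes measured 24242 and 26859 CPM in WT and 23840 and 21116 CPM in TG hindbrain libraries. In the cortex libraries they measured 5400 and 6678 CPM in WT and 3441 CPM in TG. A genotype difference of the list was not tested. Mbp differed by −0.45 ± 0.17 (TG minus WT; Benjamini-Hochberg adjusted p = 0.726 in the same edgeR fit).

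Abca8a, a membrane transporter gene at chr11:110025634-110097580 (GRCm38.p6), was lower in TG on both sides. It measured 25.0 and 26.8 CPM in the WT hindbrain libraries and 8.01 and 7.43 CPM in the TG ones, then 8.17 and 9.15 CPM in the WT cortex libraries and 1.94 CPM in TG male 4. The log2 difference was −1.86 ± 0.12, with a Benjamini-Hochberg adjusted p of 8.84e-04 from edgeR's quasi-likelihood F test. Its level also depended on the side, so the lowest WT cortex value lay close to the TG hindbrain values.

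Pcdhb8, a clustered protocadherin of neuronal cell contacts, rose in TG. It measured 8.03 and 9.11 CPM in WT and 22.2 and 19.6 CPM in TG on the hindbrain side, and 4.95 and 4.60 CPM in WT and 14.8 CPM in TG on the cortex side. The log2 difference was 1.41 ± 0.12 (Benjamini-Hochberg adjusted p = 0.00189, edgeR's quasi-likelihood F test), and that of Pcdhga4 was 1.37 ± 0.10 (adjusted p = 0.00150). Clustered protocadherins share sequence, and how multiply matching reads were handled is not given in the sources used here, so these values are uncertain for single members. Epop also rose by 0.71 ± 0.10 (adjusted p = 0.0325, the same edgeR test), but the call was lost in each fit that left out 1 library.

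Genes lower in TG included Fbxw15 (−1.47 ± 0.13), the complement inhibitor gene Cd59a (−1.28 ± 0.16), Ermard (−0.88 ± 0.10, at chr17:15041551-15090045), the neuron navigator gene Nav1 (−0.88 ± 0.11), the lipid droplet gene Plin3 (−0.87 ± 0.11) and the replication helicase gene Mcm6 (−2.43 ± 0.32). Tnnt2, cardiac troponin T, had 2 counts in all 3 TG libraries and 326 in the 4 WT libraries. Benjamini-Hochberg adjusted p-values for these genes in edgeR's quasi-likelihood F test ran from 0.00189 (Tnnt2) to 0.0321 (Mcm6). TG and WT did not overlap within either side for any of them. The same contrast picked these genes and the cortex side held 1 TG library, so the lack of overlap adds no separate support. The calls for Abca8a, Fbxw15, Pcdhb8 and Pcdhga4 held in all 7 fits that left out 1 library, while that for Mcm6 held in 1, Nav1 in 2, Cd59a and Plin3 in 3, Ermard in 4 and Tnnt2 in 6. Cd59a and Plin3 were also separated by side, with higher levels in the hindbrain libraries (2.47 and 2.29).

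**Figure D5:**
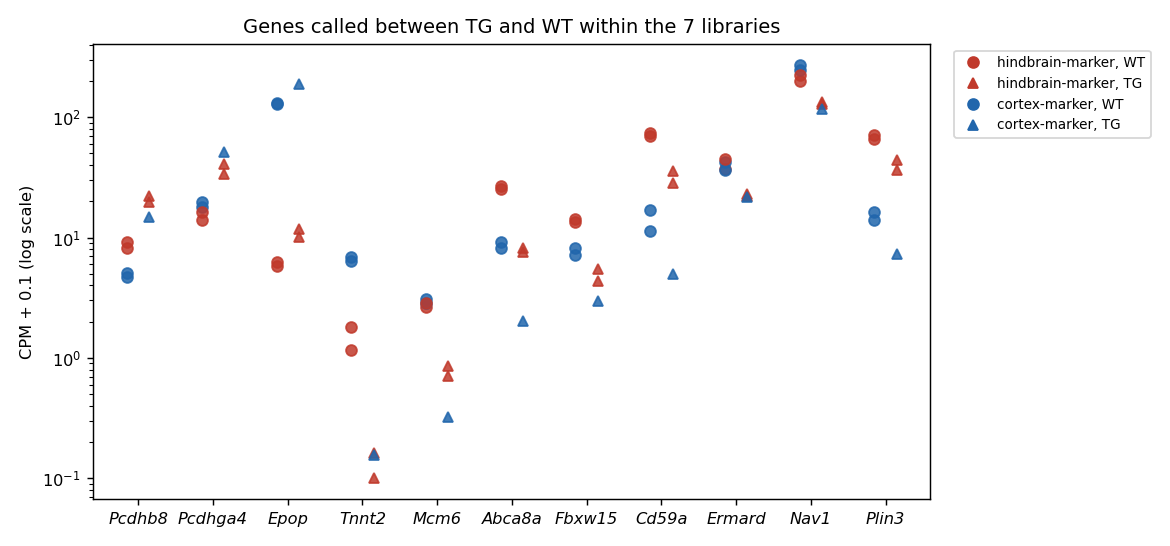
Level of 11 genes called between TG and WT, as CPM + 0.1 on a log scale, in each of the 7 libraries, in red for the hindbrain-marker and blue for the cortex-marker libraries (circles WT, triangles TG). Abca8a lies at 25.0 and 26.8 CPM in WT and 8.01 and 7.43 CPM in TG hindbrain libraries, and at 8.17 and 9.15 CPM in WT and 1.94 CPM in TG cortex libraries.

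Whether the genotype difference itself was unlike on the 2 sides was tested with the interaction term. None of 16650 genes passed (0%) in edgeR's quasi-likelihood F test after Benjamini-Hochberg adjustment, the smallest adjusted p being 0.123, while 1945 genes had an unadjusted p under 0.05. DESeq2 called 160 genes and limma-voom 0. The smallest p-values belonged to Lars2 (154, 171, 143 and 149 CPM in the hindbrain libraries, then 248, 238 and 472 CPM in the cortex libraries), Syt5 (20.4, 21.9, 36.4 and 33.0, then 134, 111 and 67.4 CPM) and Atp2b4 (130, 134, 149 and 131, then 559, 490 and 234 CPM), none of which passed. In Lars2 and Atp2b4 it was TG male 4, the single TG library of the cortex side, that stood away from the rest.

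The 8 libraries on neither side were then placed on the 3357 separated genes by asking, gene by gene, whether each lay nearer the hindbrain mean or the cortex mean. The 7 libraries with olfactory markers lay nearer the hindbrain mean for 24.8% to 42.3% of those genes, WT male 2 being the lowest and WT female 1 the highest. TG female 3, the library with cerebellum markers, lay nearer the hindbrain mean for 58.1%: for 45.1% of the genes higher in hindbrain libraries and for 74.6% of the genes higher in cortex libraries. On the first principal component of the 7 libraries, hindbrain libraries scored 44.1 to 49.6 and cortex libraries −66.6 to −61.1. The libraries with olfactory markers scored −43.9 to −22.7 and TG female 3 scored 15.9, between the sides.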

How the data were processed

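RNA-seq counts were taken from the table the authors deposited, which holds whole-number counts per gene for 15 libraries, 7 of them used here. Per the labels' protocols, libraries came from 250 ng of total RNA through a stranded kit with ribosomal depletion and were read as paired 100 bp reads, although the molecule field says polyA RNA. Per the submitters' processing notes, STAR 2.7.5b, GRCm38 and featureCounts (Subread) were used. The strand setting and the annotation were not given in the sources used here.

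Of 27179 gene IDs, 25275 were named through RefSeq and 18 through GENCODE. The 1886 without a symbol held 0.836% of counts. Counts were fitted with edgeR 4.0.16 in R 4.3.3 (TMM, filterByExpr over the sides, robust quasi-likelihood), with side and genotype as terms. TG versus WT and the genotype-by-side interaction were tested at a Benjamini-Hochberg adjusted p of 0.05. The fit was tested on simulated counts. No libraries agreed within sampling noise (lowest chi-square per gene 8.47). Limits from counts of 3 cover counting error only.

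The members and gene lists were chosen with earlier results of these data known. The rule named the 12 largest differences per direction, up to 4 members of each list per direction, the pairs, and up to 8 called genes per direction for genotype. Predicted genes were counted and not named, some genes are not reported here, and other list members serve as examples chosen after their values were seen. Alternatives were other size factors, filters, DESeq2 1.42.0, limma 3.58.1 (voom), sex as a covariate, all 15 libraries, and leaving out each library.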

Additional observations from a re-analysis of the deposited data

Results flagged for a closer look

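Among 54 summed lists and named genes screened in the 4 hindbrain libraries, 3 had 1 library whose gap to its nearest neighbour was larger, as a share of the group's range, than Dixon's 95% critical value; chance flags about 1 in 20 such groups. The summed monoamine genes measured 437 CPM in WT male 3 and 119 to 164 CPM in the other 3. The summed thalamus and hypothalamus genes measured 129 CPM in TG female 4 and 78.7 to 83.5 CPM in the others. Dlx6os1, a non-coding gene that overlaps the Dlx interneuron genes, measured 0.385 CPM in TG female 4 and 0 to 0.0626 CPM in the others. Outside the 7 libraries, Hoxa5 measured 2.00 raw CPM in TG female 3, the library with cerebellum markers, and 0 to 0.0935 raw CPM in every other library outside the hindbrain side.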

How the results depend on the processing

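Signs were followed for the genes that the rule named, not for other genes given as examples or for unnamed genotype calls. None of the separated genes among them and none of the named genotype differences changed sign under any alternative. Side differences of some genes that were not separated did: Mcm6 went from 0.18 to −0.16 without the genotype covariate, Ermard from 0.06 to −0.06 in the same fit, Nav1 from −0.11 to 0.03 with library totals, and Glra2 from 0.15 to −0.29 in WT libraries alone. With a minimum log2 difference of 2, 668 genes were separated toward the hindbrain libraries and 544 toward the cortex libraries; with no minimum, 5079 and 4947. Leaving out each library in turn gave 1817 to 2126 and 1450 to 1602. Library totals without size factors gave 2281 and 1233, and upper-quartile factors 2088 and 1326. Genes higher in TG numbered 18 with no filter on low counts, 31 with DESeq2 and 40 with all 15 libraries, and 4 to 7 when 1 library was left out. Genes lower in TG numbered 39, 78 and 42 under those settings, 6 in the hindbrain libraries alone, and 4 to 17 when 1 library was left out: 4 without TG male 4, 10 without TG female 4, and 11 without TG female 1 or without WT female 3. Interaction calls numbered 5 with no filter and 160 with DESeq2, and 0 to 80 when 1 library was left out, with 80 without WT female 2 and 1 without WT male 4; without TG male 4 the term could not be estimated. The cause of these shifts was not tested. All 22 genotype calls were among those of DESeq2, 18 among those of the fit with sex as a covariate, and 16 among those of the 15-library fit. No paired analysis was possible because the labels do not pair animals between the groups compared. The cortex side holds 1 TG library, which limits the interaction test. That library is male and the TG hindbrain libraries are female, so side and sex cannot be told apart within TG.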

Other observations

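Neuropeptide genes differed in both directions. Of 23 fitted (28 listed), 12 were separated toward the hindbrain libraries and 3 toward the cortex libraries (5 without WT female 2). Penk, the enkephalin precursor, measured 306, 227, 249 and 279 CPM in the hindbrain libraries against 59.3, 27.2 and 55.0 CPM (2.48 ± 0.29), and the substance P precursor Tac1 differed by 2.06 ± 0.25. The cortex libraries were higher for cholecystokinin (Cck), at 164, 152 and 172 CPM against 11, 17, 16.8 and 20.6 CPM (−3.37 ± 0.15), and for Vip (−3.54 ± 0.56) and Npy (−1.43 ± 0.31), peptides of cortical interneurons. Interneuron genes as a list were mixed, with 5 of 19 separated toward the hindbrain libraries and 6 toward the cortex libraries. The calcium-binding protein genes Calb2 (3.22 ± 0.70) and Pvalb (1.05 ± 0.35) were among the 5.

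Cerebellar genes were separated toward the hindbrain libraries in 7 of 15 fitted members, and Gabra6 was near 0. Cbln1, a synapse organizer of granule cells that brainstem neurons also make, measured 47.7, 78.9, 76.5 and 83.4 CPM against 10.1, 12.7 and 2.56 CPM. Itpr1, the calcium release channel abundant in Purkinje cells, went the other way at 389, 365 and 439 CPM in the cortex libraries against 45.9 to 54.4 CPM (−3.01 ± 0.09). Among 7 fitted choroid plexus and ependyma genes (11 listed), 5 were separated toward the hindbrain libraries: Prlr, the prolactin receptor, measured 23.8, 24.2, 31.9 and 25.2 CPM against 1.01, 1.59 and 1.72 CPM (4.13 ± 0.16), while Ttr, the most abundant choroid plexus RNA, stayed at 0.939 to 3.40 CPM. Vascular and meningeal genes were separated toward the hindbrain libraries in 4 of 22 cases, and in 8 without TG female 4; the fibroblast gene Dcn measured 59, 21.9, 46.1 and 15.5 CPM against 8.34, 5.34 and 8.11 CPM. Hippocampal genes showed no common direction, with 2 of 13 fitted members separated toward the hindbrain libraries (1 without TG male 4) and 3 toward the cortex libraries.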
